A study of Mus musculus with 108 samples.

Results

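GABA-A receptor subunit genes are described here through 7 members, namely Gabra2, Gabra3, Gabra4, Gabra5, Gabra6, Gabrb2 and Gabrd, which were found by symbol among 53465 genes in the counts. RNA from 3 brain regions, the cortex (CX), the hippocampus (HIP) and the cerebellum (CB), was sequenced in wild-type (WT) mice and in Cul3+/- mutant mice (HET), at embryonic day E17.5, postnatal day P7 and adult P35. Each genotype had 6 mice per period. Of 108 libraries, 102 were used, because the labels and the sample table of the study give opposite genotypes for mice P35_22 and P35_23, which left 5 mice per genotype at P35. The HET mice carried a germline 1 bp frame-shifting insertion in exon 6 of Cul3, made by CRISPR/Cas9 in a C57BL/6N line (the labels write C56Bl/6N) that descended from 1 founder. Cul3 is the scaffold of a ubiquitin ligase. Each mouse gave all 3 regions, and the germline insertion was not limited to a cell type.

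GABA-A receptors are chloride channels assembled from alpha and beta subunits together with a gamma or a delta subunit. They carry most fast inhibition in the brain. The alpha subunit sets how fast the channel closes, where on the neuron it sits and which drugs bind it. Receptors with alpha2, alpha3 or alpha5 are typical of immature neurons, and other alpha subunits become abundant as circuits mature, which is known as the developmental alpha subunit switch. Receptors that hold delta lie outside the synapse and carry a tonic current, with alpha6 in cerebellar granule cells and with alpha4 in forebrain neurons.

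The alpha genes fall into groups by 1 codon. A histidine in the extracellular domain is required for binding of classical benzodiazepines such as diazepam, and alpha4 and alpha6 carry arginine there. The 45 bases around this codon are shown because the codon itself differs between Gabra2, Gabra3 and Gabra5 on the one side and Gabra4 and Gabra6 on the other. Each window lies within 1 coding exon, is written 5′ to 3′ on the coding strand from the GRCm38 genome, and has the codon in capitals.
Gabra2: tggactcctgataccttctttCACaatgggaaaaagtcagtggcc
Gabra3: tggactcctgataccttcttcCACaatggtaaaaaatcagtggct
Gabra5: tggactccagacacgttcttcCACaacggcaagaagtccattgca
Gabra4: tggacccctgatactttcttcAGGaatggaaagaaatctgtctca
Gabra6: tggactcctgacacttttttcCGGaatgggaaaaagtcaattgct
The codon is CAC, for histidine, in 3 of the 5 alpha genes among the members, AGG in Gabra4 and CGG in Gabra6, both for arginine. The windows lie on the minus strand at chr5:71014484-71014528 in exon 5 (Gabra2), chrX:72501147-72501191 in exon 5 (Gabra3), chr7:57488870-57488914 in exon 5 (Gabra5), chr5:71641131-71641175 in exon 4 (Gabra4) and chr11:42317626-42317670 in exon 4 (Gabra6). Pairs of windows differed at 4 bases (Gabra2 and Gabra3) to 14 bases (Gabra4 and Gabra5) of 45. Over all 45 bases, the codon included, the windows do not sort by this grouping, since Gabra6 differed from Gabra2 at 9 bases and Gabra5 differed from Gabra2 at 11.

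In the annotation of that build, Gabra6 (ENSMUSG00000020428, chr11:42306437-42321072, minus strand) and Gabrb2 (ENSMUSG00000007653, chr11:42419757-42629028, plus strand) lie in 1 cluster of subunit genes. Gabra2 (ENSMUSG00000000560, chr5:70957597-71095849) and Gabra4 (ENSMUSG00000029211, chr5:71569749-71658308) share a second cluster. Gabra5 (ENSMUSG00000055078, chr7:57407672-57510059), Gabra3 (ENSMUSG00000031343, chrX:72432681-72656848) and Gabrd (ENSMUSG00000029054, chr4:155384980-155398112) lie elsewhere, all on the minus strand. Exons of Gabra4 and Gabrb1 overlap by 46 bases on opposite strands, and those of Gabra5 and the antisense gene Gm9962 by 148 bases. The libraries were stranded.

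Library totals ran from 15126114 to 44411282 expected counts. Cul3 was lower in HET in all 9 pairings of period and region, at 0.503 to 0.5996 of the WT level (largest false discovery rate, FDR, 0.00263). Markers of cortex, hippocampus and cerebellum were each highest in the tissue of that name, and cortex markers summed to at most 11.1 CPM (counts scaled to a common library total) in CB. Other tissues were less distinct. In WT E17.5 HIP, cerebellum markers summed to 106 to 320 CPM (721 to 1067 in CB) and cortex markers to 98.8 to 269 (496 to 1038 in CX). Hippocampus markers reached 387 CPM in WT P35 CB, against 534 to 681 in HIP. The names of the E17.5 embryos carry S2, S3 or S4, and those of the P7 pups C1, C2 or C4, each shared by both genotypes. What these tokens stand for is not given in the sources used here. The 4 S3 embryos had the lowest summed neuron markers in CX (550 to 680.1 CPM against 740 to 972). In HIP they were also low, at 299 to 568 CPM against 514 to 862. Choroid plexus markers varied widely between libraries, up to 4652 CPM in HIP of WT E17.5 replicate 2 and from 4.32 to 2690 CPM in P7 CB.

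The mixture of the 5 alpha genes among the members changed leader in every region. For this comparison between genes, CPM was divided by exon length in kilobases, and each gene was given as a percent of the sum over these 5 genes, which is not all alpha subunit mRNA. In WT CX, Gabra2 led at E17.5 with 50.2% ± 7.7 (SD, n = 6) and Gabra5 at P7 with 46.8% ± 1.8 (n = 6). At P35 (n = 5) Gabra3 led with 30.8% ± 1.2, ahead of Gabra4 at 27.7%. With the longest coding transcript as the length the order of that pair turned, with Gabra4 at 33.0% and Gabra3 at 26.6%. In WT HIP, Gabra2 led at E17.5 with 58.7% ± 9.9, and Gabra5 led at P7 with 53.2% ± 1.3 and at P35 with 47.0% ± 1.4, ahead of Gabra2 at 30.3% ± 0.5. In WT CB, Gabra3 led at E17.5 with 42.9% ± 2.7, and Gabra6 led at P7 with 44.7% ± 6.2 and at P35 with 94.1% ± 0.8. Each leader by exon length was in front in every WT library of its group.

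**Figure D1:**
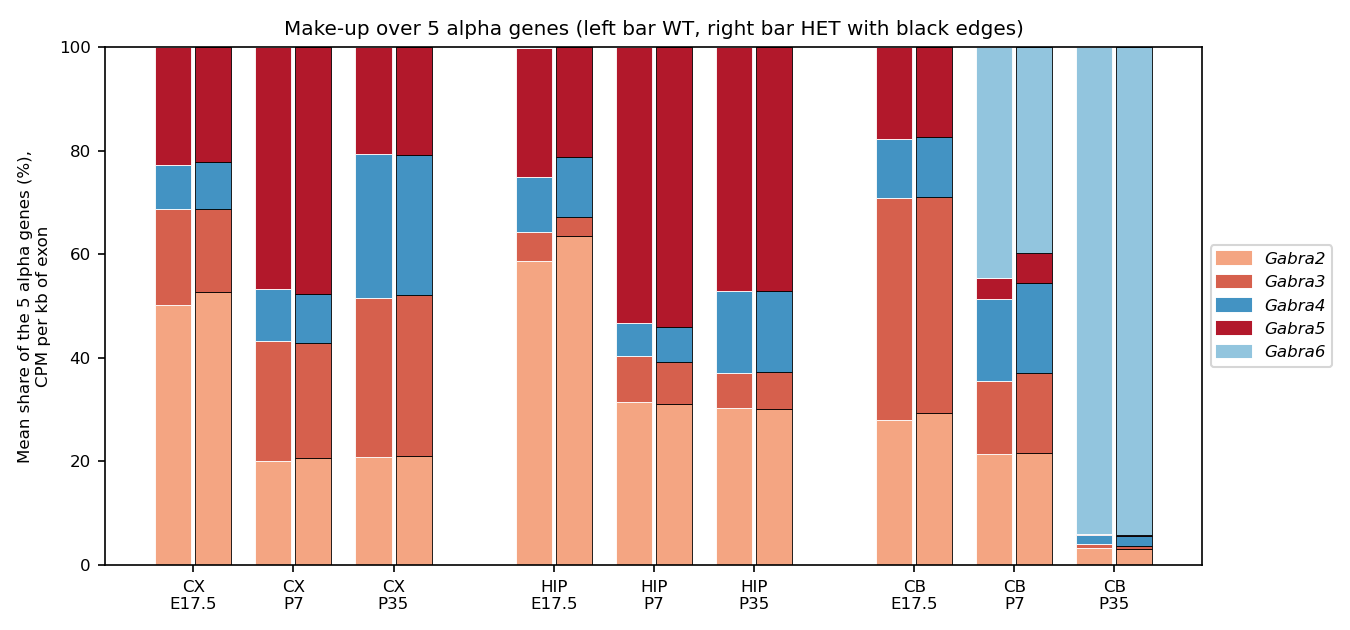
Share of each of 5 alpha subunit genes in their summed level (percent of summed CPM per kilobase, vertical axis) in each region and period, as the mean over libraries, with WT in the left bar and HET in the right bar. Gabra2 gives way to Gabra5 at P7 in CX and HIP, Gabra5 stays in front in HIP, and Gabra6 fills 94.1% of the WT bar of P35 CB.

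Gabra2, Gabra3 and Gabra5 together made up most of this sum at E17.5 in all regions. Their joint share in WT CX was 91.5% ± 1.2, 89.98% ± 0.66 and 72.3% ± 0.7 at E17.5, P7 and P35. In WT HIP it was 89.1% ± 2.9, 93.6% ± 0.3 and 84.2% ± 0.5. In WT CB it was 88.6% ± 1.7, 39.4% ± 4.0 and 4.07% ± 0.69. The joint share in CB at P7 was below that of CX at P35, and the ranges of the libraries (31.4% to 41.9% and 71.5% to 73.4%) did not overlap.

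Gabra6, the alpha subunit of cerebellar granule cells, had the widest range of the 7 members. In WT CB at E17.5 the 6 libraries held 0, 3, 1, 0, 1 and 3 counts. At P7 the level was 20.4 to 54.6 CPM with a median of 33.1, and at P35 the 5 libraries were at 789, 817, 621, 748 and 829.1 CPM. The periods did not overlap. On pooled counts the P7 level was 924 times that at E17.5, with a 95% counting interval of 469 to 2142, which covers counting error only. From P7 to P35 Gabra6 rose by 4.46 ± 0.29 (log2, SE, FDR 1.21e-15). Mature granule neuron markers, summed over 5 genes (Cbln1, Cbln3, Grin2c, Fat2 and Slc17a7), moved the same way in WT CB, from 193 to 314 CPM at E17.5 over 669 to 837 at P7 to 4163 to 5601 at P35. The summed list also rose in WT CX (medians of 55.2, 468 and 1078 CPM) and HIP (60.1, 551 and 909 CPM), where Slc17a7 made up most of it at P35, with a mean of 1036 CPM in CX and 874 in HIP. Cbln3 and Fat2 were at most 3.34 CPM in CX and HIP of WT at every period, and reached 1369 to 1644 and 1336 to 2329 CPM in P35 CB. The part of these cells in the result was not tested. In bulk tissue, more cells of a type and more RNA per cell cannot be told apart.

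Outside the cerebellum Gabra6 was near 0. In WT CX at P35 the 5 libraries held 5 counts in all, and CB was 24742 times higher with an interval of 10602 to 76202. HIP of WT E17.5 embryos held 44 counts over 6 libraries, 7.49 times the CB level at that age with an interval of 3.49 to 18.4. The Gabra6 share among the 5 alpha genes in that group was 0.184% ± 0.053.

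Gabrd, the delta subunit of receptors outside the synapse, rose at all 6 steps. In WT CB its median was 0.384 CPM at E17.5 (0.169 to 0.481) and 18.6 CPM at P7 (13.98 to 26.1). The 5 P35 libraries were at 222, 225, 174, 197 and 230 CPM, so the periods did not overlap. The changes were 5.71 ± 0.31 (FDR 1.57e-16) and 3.47 ± 0.22 (FDR 5.57e-16) on the log2 scale. In E17.5 CB alone Gabrd did not pass the filter on low counts. It was tested at the first step through its later libraries, so that FDR adds little to the levels. In CX Gabrd rose by 2.26 ± 0.11 and 2.42 ± 0.11, and in HIP by 2.46 ± 0.28 and 1.95 ± 0.25 (largest FDR of these 6.54e-08). At P35 the order was CB, CX (59.3 to 73.9 CPM) and HIP (19.1 to 23.1 CPM).

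Gabra5, which marks receptors outside the synapse in hippocampal pyramidal cells, rose in forebrain and fell in cerebellum from E17.5 to P7, and from P7 to P35 it fell in CX and CB. In WT HIP its median rose from 51.9 CPM at E17.5 (10.1 to 73.4) to 208 at P7 (191 to 226). The 5 P35 libraries were at 200, 202, 223, 160 and 212 CPM and overlapped those of P7. The changes were 2.21 ± 0.37 (FDR 2.97e-06) and -0.03 ± 0.37 (FDR 0.957). The second SE also holds the spread at E17.5, because each gene's spread was estimated over all 3 periods of a region together. Between genotypes within P7 HIP and within P35 HIP the SE of Gabra5 was 0.07. In WT CX it rose by 2.52 ± 0.31 (FDR 6.36e-09) to a median of 144 CPM at P7, and then fell by 1.33 on the log2 scale (SE 0.31, FDR 3.71e-04) to 61.1, 58.1, 51.5, 52.3 and 55.3 CPM at P35. In WT CB it fell by 1.80 (SE 0.23, FDR 3.86e-08) and again by 2.90 (SE 0.32, FDR 6.39e-10). The median in CB was 12.3 CPM at E17.5 and 3.26 CPM at P7, and the 5 P35 libraries held 14 to 18 counts each, or 0.381 to 0.569 CPM.

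Gabra3, an alpha subunit of immature neurons and of monoamine neurons, is on the X chromosome. In WT CX it rose from a median of 20.98 CPM (13.2 to 31.4) at E17.5 to 93.3 (83.7 to 107) at P7, by 2.01 ± 0.17 (FDR 9.80e-13). From P7 to P35 the change in CX was 0.25 ± 0.16 (FDR 0.175). That SE also holds the spread at E17.5. Between genotypes the SE of Gabra3 was 0.06 within P7 CX and 0.04 within P35 CX, so the missing call does not show a wide spread at P7 or P35. In WT HIP it rose by 1.86 ± 0.31 (FDR 3.51e-06) and then changed by -0.23 ± 0.31 (FDR 0.548). In WT CB it fell at both steps, by 1.24 (SE 0.10) and 0.84 (SE 0.10), from 31.8 to 43.9 CPM at E17.5 over 12.8 to 18.5 at P7 to 7.88 to 11.2 at P35, with no overlap between periods.

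Gabra2, the alpha subunit of many forebrain axon initial segments, changed least with age in CX and HIP. In WT HIP it was at 193 to 287 CPM at E17.5 (median 231) and at 291 to 366 at P7 (median 309), a rise of 0.37 ± 0.08 (FDR 2.42e-04). The P35 libraries were at 333, 349, 351, 276 and 338 CPM (log2 change 0.09 ± 0.09, FDR 0.411). In WT CX its changes were 0.27 ± 0.19 (FDR 0.18003) and -0.11 ± 0.20 (FDR 0.630). The first of these was -0.04 ± 0.10 without the S3 embryos, and it passed without WT E17.5 replicate 1 (0.41) or 6 (0.37). In WT CB it was 0.01 ± 0.08 up to P7 and rose by 0.69 ± 0.08 (FDR 1.52e-09) up to P35. Its share among the 5 alpha genes went from 50.2% to 20.1% in CX and from 58.7% to 31.6% in HIP between E17.5 and P7, while its own level fell at no step that passed the test.

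Gabra4, which pairs with delta in thalamus, dentate gyrus and striatum, rose at all 6 steps in WT. In CX the median was 17.8 CPM at E17.5 (8.60 to 21.6) and 65.7 at P7 (54.6 to 69.7), and the P35 libraries were at 164, 164, 145, 144 and 142 CPM. The rises were 1.88 ± 0.14 (FDR 1.60e-13) and 1.303 ± 0.14 (FDR 1.42e-09). In HIP they were 0.56 ± 0.06 and 1.46 ± 0.06, and in CB 0.87 ± 0.08 and 0.34 ± 0.08 (largest FDR of these 5.28e-04). Gabra4 and Gabra6, the genes with the arginine codon, thus rose together in CB, although by very different amounts.

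Gabrb2, a beta subunit common in adult synaptic receptors, rose at both steps in CX and HIP. In WT CX it went from a median of 82.3 CPM (37.4 to 106) over 207 (186 to 220) to 303, 317, 270, 299 and 264 CPM, with rises of 1.37 ± 0.20 (FDR 1.89e-07) and 0.55 ± 0.20 (FDR 0.0185). In HIP the rises were 1.95 ± 0.20 and 0.65 ± 0.20. In WT CB it fell by 0.25 up to P7 (SE 0.11, FDR 0.0545), which did not pass without WT P7 replicate 2 (-0.17, FDR 0.172). It then rose by 2.58 ± 0.12 (FDR 3.13e-19), to 334, 362, 333, 382 and 332 CPM. Neuron markers (Rbfox3, Snap25, Syt1 and Stmn2) summed to 825 to 1027 CPM at E17.5, 1048 to 1183 at P7 and 3351 to 3562 at P35 in WT CB; their part in these changes was not tested.

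**Figure D2:**
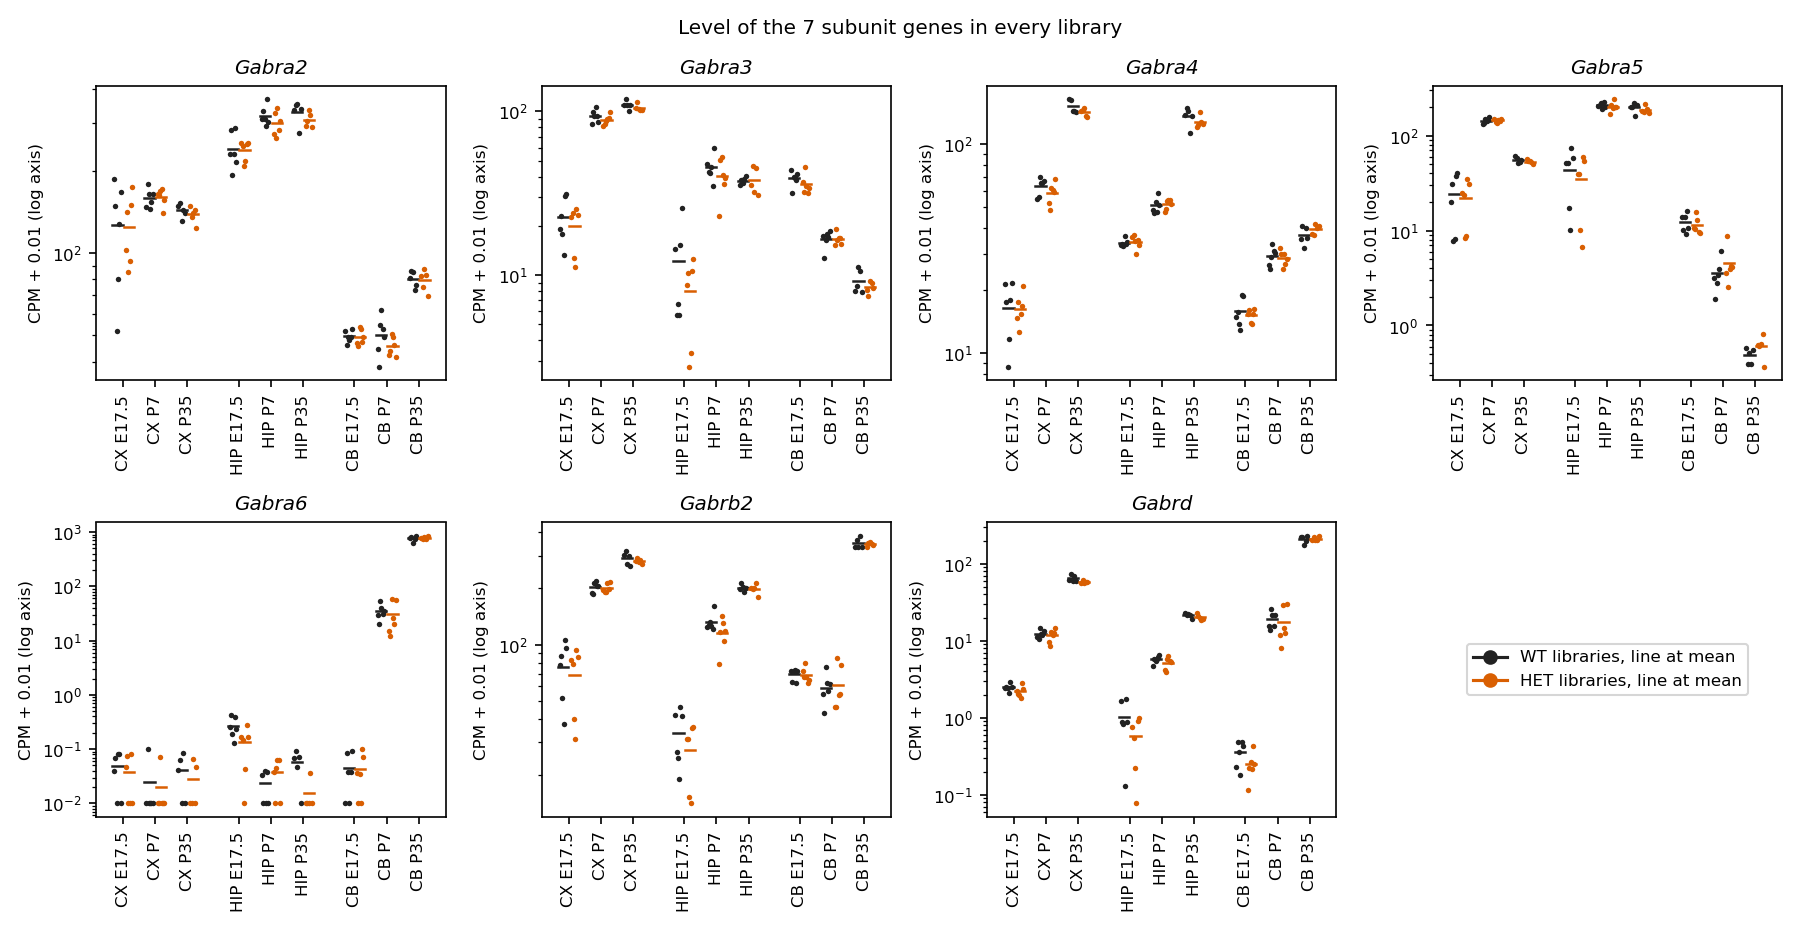
Level of the 7 members in CPM plus 0.01 (logarithmic vertical axis) in the 3 regions at E17.5, P7 and P35, with 1 point per library, WT in black, HET in orange and a line at each mean. Gabra6 and Gabrd climb in CB, Gabra5 and Gabra3 fall there, and WT and HET points of each group overlap.

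Counted over members in WT, 5 of 6 rose from E17.5 to P7 in CX, where 42.1% of all genes rose and 41.1% fell. From P7 to P35 in CX 3 of 6 rose and 1 fell (34% and 35.5% of all genes). In HIP 6 of 6 and then 3 of 6 rose and none fell (37.6% and then 31.9% of all genes rose, 40.3% and 30.2% fell). In CB 3 of 7 rose and 3 fell up to P7 (36% and 36.1% of all genes), and 5 of 7 rose and 2 fell up to P35 (40% and 39.2%). Gabra6 did not pass the filter on low counts in CX and HIP. In CB, Gabra6 and Gabrd would not have passed on their E17.5 libraries alone, so their calls up to P7 there add little in either genotype. Neuron markers rose over the same periods, with medians of 802, 3048 and 4667 CPM in WT CX and 668, 2118 and 3572 CPM in WT HIP; their part in these changes was not tested. Most genes were called at these steps, so the size and direction of each change tell more than the count. Periods were collected from different mice, and the age of a period cannot be told apart from the collection of its samples.

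**Figure D3:**
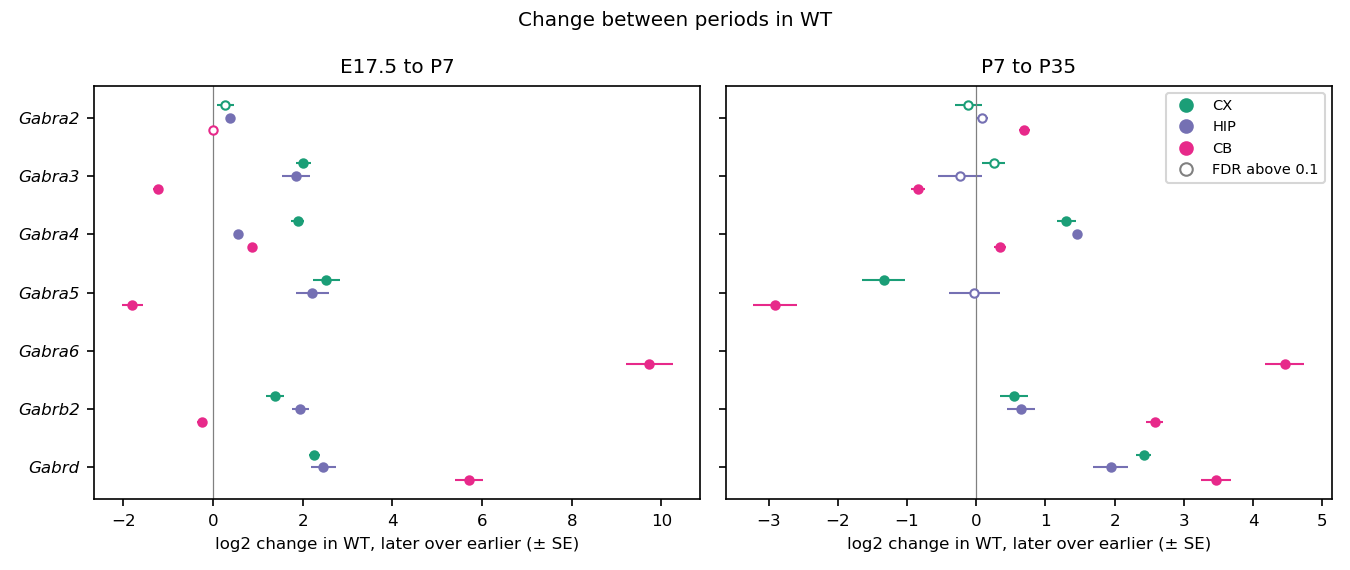
Change of each member between successive periods in WT (log2, later over earlier, horizontal axis, points with SE bars from the edgeR test), with 1 colour per region and open points where the FDR was above 0.1. Changes in CB reach 9.73 for Gabra6, and Gabra3 and Gabra5 lie below 0 in CB at both steps.

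In HET, Gabra6 rose in CB by 9.71 ± 0.53 and 4.66 ± 0.29, Gabrd rose in HIP by 3.11 ± 0.30 and 2.03 ± 0.25, and Gabra5 fell in CB by 1.35 (SE 0.23) and 2.93 (SE 0.31). The first Gabra6 value starts from 7 counts in all HET libraries of E17.5 CB. On pooled counts the P7 level was 949 times higher, with a 95% counting interval of 460 to 2360. Of members in HET CX, 5 of 6 rose and 0 fell at the first step (41.7% and 41.2% of all genes). At the second step 3 of 6 rose and 1 fell (34.3% and 35.2%). In HIP 6 of 6 and then 3 of 6 rose and 0 fell (39.7% and 38.7% of all genes, then 31.2% and 32.7%). In CB 3 of 7 rose and 2 fell (36.7% and 36.6%), then 5 of 7 rose and 2 fell (38.2% and 39.6%). The test of the difference between genotypes called no member at any step, 0 of 6 in CX and HIP and 0 of 7 in CB, nor any of all genes (0% called). At an unadjusted p under 0.05 it also called 0 members. The smallest p was that of Gabrd in HIP from E17.5 to P7, where the HET step exceeded the WT step by 0.65 (95% interval -0.17 to 1.47, FDR 0.902 by edgeR's quasi-likelihood test).

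Between regions of WT mice, tested with the mouse as a block, members differed in ways that turned over with age. At E17.5, Gabra2 was higher in HIP than in CX by 1.01 ± 0.18 (FDR 8.16e-05), and Gabra3 was higher in CB than in HIP by 1.87 ± 0.29 (FDR 8.67e-06). By P35 Gabra3 was lower in CB than in HIP by a log2 difference of -2.03 ± 0.11 (FDR 9.88e-14). Gabrb2 was also higher in CB than in HIP at E17.5 (1.143 ± 0.22), was lower there at P7 (-1.11 ± 0.11) and was again higher at P35 (0.79 ± 0.04, largest FDR of these 1.50e-04). Gabrd was lowest in CB at E17.5 (CX to CB -2.83 ± 0.34) and highest there at P35 (1.70 ± 0.07). For Gabra5 the CX to CB difference was -0.64 ± 0.41 at E17.5 (FDR 0.182, and -0.98 with FDR 0.0580 without mouse 3), -5.30 ± 0.19 at P7 and -6.88 ± 0.11 at P35 (largest FDR of the last pair 1.55e-18). At P35 the HIP level of Gabra5 was 421 times the CB level.

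Members called between CX and HIP were 6 of 6 at E17.5 (49.1% of all genes), 3 higher in HIP and 3 lower (25.3% and 23.8% of all genes), 6 of 7 at P7 (55.3%) and 6 of 7 at P35 (55.3%). Between CX and CB they were 3 of 6 (63.9%), 1 higher in CB and 2 lower (32.4% and 31.5%), then 7 of 7 (81.8%) and 7 of 7 (76.8%), and between HIP and CB 6 of 6 (52.4%), 2 higher in CB and 4 lower (26.2% and 26.2%), then 7 of 7 (76.3%) and 7 of 7 (76.5%). Gabra6 counts among the 7 at P7 and P35 only because its CB libraries passed the filter on low counts. Its calls against CB were thus fixed in advance, and between CX and HIP it was near 0 in both. Gabrd passed at E17.5 through CX and HIP, not CB. Without the S3 embryos 5 of 6 were called between CX and CB at E17.5, with Gabra5 at -1.28 ± 0.17 and Gabrb2 at -0.39 ± 0.11. The E17.5 call of Gabra5 between CX and HIP (0.87 ± 0.39, FDR 0.0780) was lost without mouse 1, 2, 3 or 5 in turn. The P35 call of Gabra4 between CX and HIP (-0.15 ± 0.06, FDR 0.0347) was lost without mouse 1 (FDR 0.120). The region by genotype test called 0 members at each period (0%, 0% and 0.00525% of all genes), and 0 members at an unadjusted p under 0.05.

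The genotype comparison asked whether subunit expression differed in Cul3+/- brain. No member was called in any of the 9 pairings of period and region. The 55 tests gave log2 differences of HET over WT between -0.81 and 0.37, and 42 of 55 were below 0. These tests share mice and libraries and are not independent, and the median over all genes lay between -0.0028 and 0.0069 in the 9 pairings. Members tested were 6 in each pairing of CX and HIP, 5 in CB at E17.5 and 7 in CB at P7 and at P35, and the smallest FDR was 0.455. Of all genes, 1 was called in each pairing, and this was Cul3 itself. That is 0.00603% of genes in CX at E17.5, 0.00566% at P7 and 0.00569% at P35. In HIP the shares were 0.00586%, 0.00563% and 0.00584%, and in CB 0.00568%, 0.0057% and 0.00584%. The WT and HET libraries overlapped for every member tested, and the share of all genes without overlap was 0.0603%, 0.164% and 0.609% in CX, 0.0586%, 0.22% and 1.08% in HIP, and 0.153%, 0.188% and 2.64% in CB at the successive periods.

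At an unadjusted p under 0.05, 1 of the 55 tests passed, beside 1.67% to 14.4% of all genes per pairing. In its own pairing it was 1 of 6 members, beside 3.66% of all genes. It was Gabrd in P35 CX, with WT libraries at 60.97, 73.9, 59.3, 68.5 and 60.1 CPM and HET libraries at 56.7, 61.6, 56.0, 58.6 and 58.7 CPM. The difference was -0.13 ± 0.06, with FDR 0.997 by edgeR's quasi-likelihood test, and the groups overlapped. DESeq2, the likelihood ratio test and a fit with 3 factors of unwanted variation also called 0 members, beside 1 to 218, 1 to 150 and 1 to 190 of all genes per pairing.

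How large a difference could have gone unseen depended on the group. The 95% intervals of log2 differences, here and above, come from the SE and the normal distribution. They are somewhat too narrow for 5 or 6 mice per group. In P35 CX the 95% interval of Gabra3 was -0.13 to 0.05, and that of Gabrb2 was -0.12 to 0.06. In P35 CB, Gabra6 was at 789, 817, 621, 748 and 829.1 CPM in WT and at 789, 746, 812, 731 and 849 CPM in HET, with a difference of 0.02 and an interval of -0.13 to 0.18. The largest difference, for Gabrd in E17.5 HIP (-0.81 ± 0.55, FDR 0.941), had an interval of -1.88 to 0.26. That gene had 2 to 51 counts per library there.

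**Figure D4:**
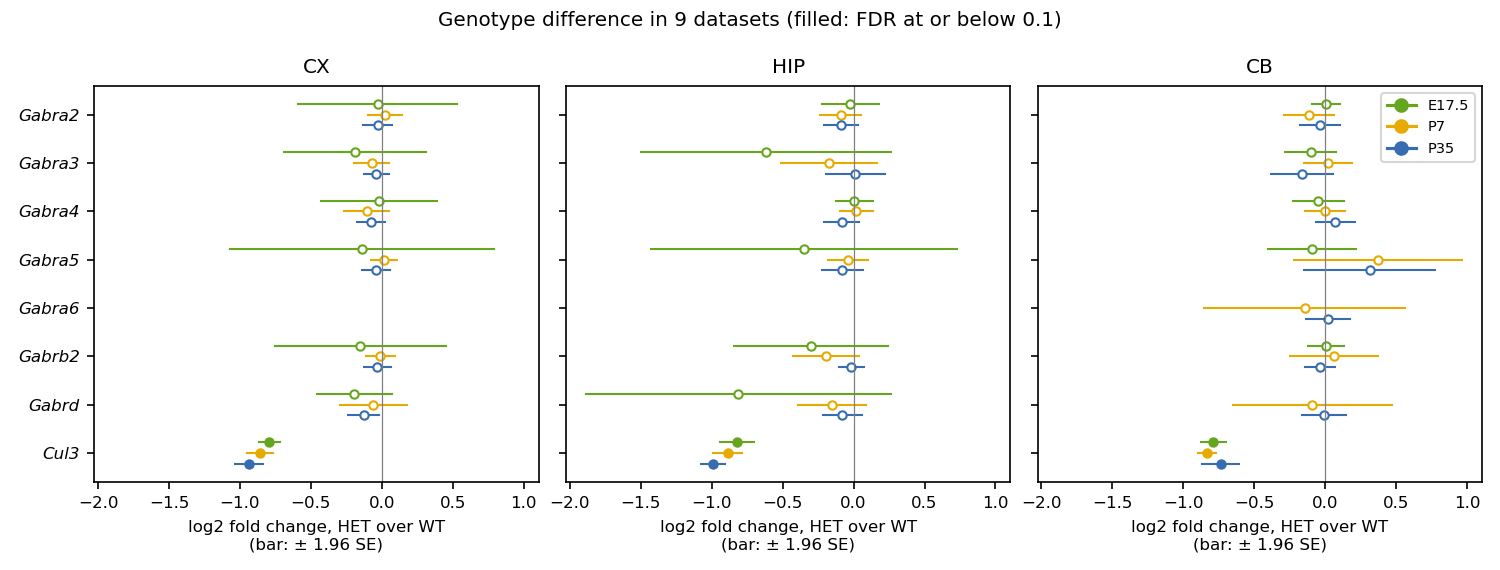
Difference of HET over WT (log2, horizontal axis, points with 95% interval bars from the SE) for each member tested and for Cul3, by region and with 1 colour per period. The bars of Gabra3, Gabra5 and Gabrd are widest at E17.5 in HIP and those of Gabra2, Gabra4 and Gabrb2 at E17.5 in CX, and among all points only those of Cul3 are filled, which marks an FDR at or below 0.1.

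In E17.5 forebrain, libraries of 1 group differed with the name series of the embryo. Gabra5 in HIP was at 51.7 and 52.1 CPM in S2, 17.3 and 10.1 in S3, and 73.4 and 58.7 in S4 of WT. In HET it was at 39.4 and 39.2, 10.2 and 6.75, and 59.2 and 53.5 CPM. Within S2 both HET embryos were below both WT embryos, and within S3 and S4 the genotypes overlapped. In CX the S3 embryos were at 7.83 to 8.84 CPM and the others at 20.2 to 40.0. There both HET embryos were below both WT embryos in S4, above them in S3, and between them in S2. Their low neuron markers are given above; their part in the result was not tested.

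With the name series as a block, an alternative chosen after seeing the data, 4 members in E17.5 HIP were lower in HET at an unadjusted p under 0.05 by edgeR's quasi-likelihood test, and 9.13% of all genes passed that p in either direction. They were Gabra5 (-0.44 ± 0.14, FDR 0.502), Gabrb2 (-0.34 ± 0.11, FDR 0.514), Gabra3 (-0.63 ± 0.23, FDR 0.514) and Gabrd (-0.93 ± 0.39, FDR 0.530). None was called. Under the same block 1 of 6 members passed that p in P7 CX, Gabra4 (-0.11 ± 0.04, FDR 0.815, beside 5.53% of all genes). In E17.5 CX, E17.5 CB, P7 HIP and P7 CB 0 members did, beside 7.19%, 8.05%, 5.56% and 5.5% of all genes. Summed neuron markers in E17.5 HIP were also lower in HET within S3 and S4, at 332 and 299 CPM against 568 and 478, and at 662 and 719 against 789 and 862; in S2 they were 623 and 646 against 767 and 514. Inhibitory neuron markers (Gad1, Gad2 and Slc32a1) ranged from 25.0 to 88.4 CPM in HET and from 33.9 to 186 in WT, with medians of 68.1 and 72.0. Their part in the result was not tested.

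**Figure D5:**
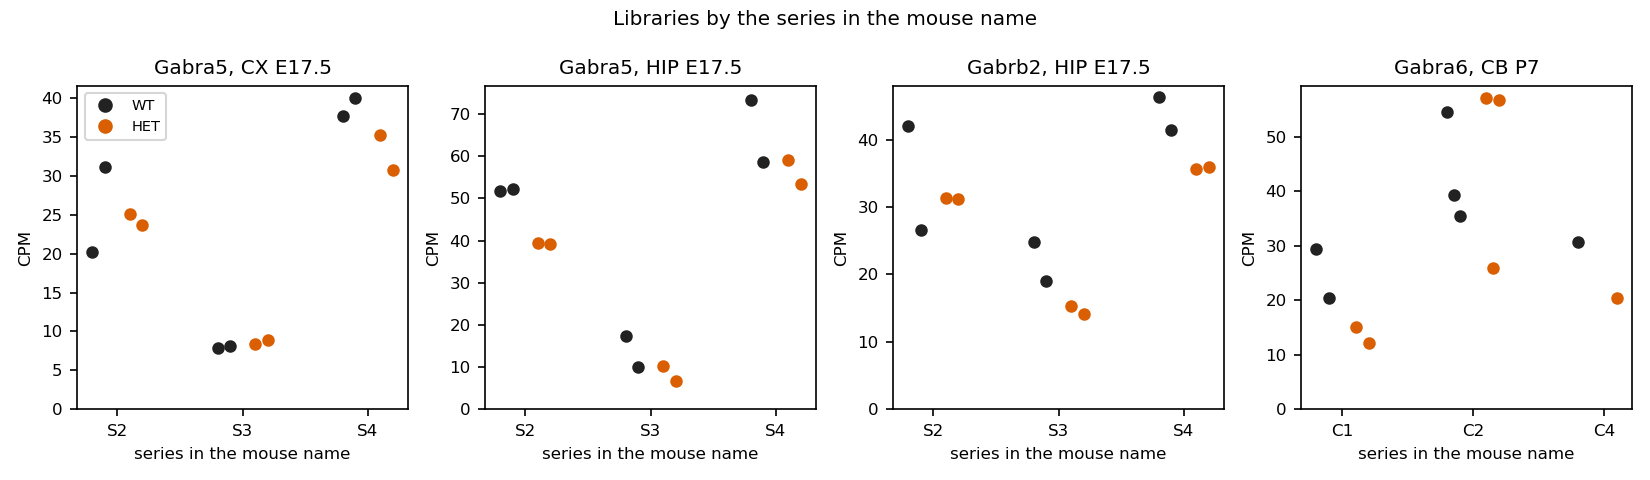
Levels in CPM (vertical axis, from 0) by the series in the mouse name (horizontal axis), with 1 point per library, WT in black and HET in orange, for Gabra5 in E17.5 CX, Gabra5 and Gabrb2 in E17.5 HIP and Gabra6 in P7 CB. The S3 embryos lie lowest for Gabra5, at 7.83 to 8.84 CPM in CX and 6.75 to 17.3 CPM in HIP.

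In P7 CB, at the start of the Gabra6 rise, C1 pups were at 29.4 and 20.4 CPM in WT and 15.1 and 12.1 in HET. C2 pups were at 54.6, 39.4 and 35.5 in WT and 57.1, 25.9 and 56.8 in HET, and the C4 pups were at 30.6 and 20.5. HET was lower in C1 and C4 and overlapped WT in C2. The overall difference was -0.15 ± 0.36 (FDR 0.994). Choroid plexus markers had a median of 1449 CPM in HET and 6.36 in WT in this tissue, with 5 of 6 HET libraries above 700 CPM. With these markers as a covariate the difference of Gabra6 went from -0.15 to 0.07 (SE 0.40) and that of Gabrd from -0.09 to 0.07. That of Gabra5 went from 0.37 to -0.12 and that of Gabra3 from 0.02 to -0.07, none of them called. The markers differed by genotype, so what the covariate takes up cannot be told apart from genotype.

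Of 9 other subunit genes of the family, Gabrp and Gabrr3 were not tested at any step, and 5 to 7 were tested by region. From E17.5 to P7 in WT CX 4 of 5 rose and 1 fell, and from P7 to P35 none rose and 1 fell. In HIP 5 of 6 rose and 1 fell, then 2 rose and 2 fell. In CB 2 of 7 rose and 3 fell, then 3 rose and 1 fell. Some of these calls were of genes near 0. Up to P7, Gabre fell from 0.310 to 0.128 CPM in CX and from 0.418 to 0.151 in HIP. Gabrr1 rose from 0 to 0.320 CPM in HIP up to P7, and Gabrr2 from 0.0954 to 0.380 in CB up to P35. Of all genes 42.1% rose and 41.1% fell at the first step in CX, and the shares at the other steps, given above for the members, were 30.2% to 40.3%. Gabrb1, a beta subunit, rose in CX by 1.87 ± 0.28 up to P7, and in CB it changed by -0.05 ± 0.14 up to P7 and rose by 1.54 ± 0.15 up to P35. Gabrg3, a gamma subunit, rose in CX by 2.51 ± 0.24 up to P7 and fell at both steps in CB, by 0.48 (SE 0.18) and 0.64 (SE 0.20). Gabrq, which encodes theta, rose in CX by 3.07 ± 0.23 up to P7 and fell by 2.13 (SE 0.23) up to P35. None of these genes was called between genotypes, where 4 or 5 were tested in each of the 9 pairings, and 2 tests passed an unadjusted p under 0.05 by edgeR's quasi-likelihood test, both of Gabrg1, in P35 HIP (-0.17 ± 0.06) and P35 CB (0.33 ± 0.11). Of all genes 6.25% and 14.4% passed that p there.

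A list of 11 genes of inhibitory synapse scaffold, assembly and trafficking was also examined. In WT CX 7 rose and 3 fell up to P7, and 4 rose and 5 fell up to P35. In HIP 6 rose and 3 fell, then 3 rose and 5 fell, and in CB 6 rose and 3 fell, then 5 rose and 5 fell. Of all genes, 31.9% to 42.1% rose and 30.2% to 41.1% fell at each of these steps, and nothing particular to the list is read from its counts. Gphn, whose product gephyrin anchors receptors at inhibitory synapses, rose in CX by 0.96 ± 0.05 and then fell by 0.24 (SE 0.06). In CB it rose at both steps, by 0.23 ± 0.05 and 0.35 ± 0.05. Shisa7, an auxiliary subunit, fell in CB by 2.34 (SE 0.19) up to P7. None of the 11 was called between genotypes in any of the 9 pairings, and 2 tests passed an unadjusted p under 0.05 (Plcl1 in P35 CX, -0.12 ± 0.06, and Nlgn2 in P35 HIP, 0.16 ± 0.07). That was 1 of 11 in each of these pairings, beside 3.66% and 6.25% of all genes, and 0 of 11 in each of the others.

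Likeness between genes was taken as Pearson's r of the mean log2 CPM over the 9 WT groups, as a description over points that share mice and regions. Among members, Gabrb2 and Gabrd were most alike (r = 0.81) and Gabra5 and Gabra6 most opposed (r = -0.88). Among 14574 other protein-coding genes with a mean of at least 1 CPM in some group, Gabra5 was most like Myo5b (r = 0.992), St6galnac5 (0.989) and Trhr (0.985), and Gabra6 was most like Hes3 (0.984), Pkp3 (0.981) and Fgf7 (0.981). Outside P7 and P35 CB the WT means of Gabra6 were only 0.014 to 0.26 CPM. Its r values, that with Gabra5 included, thus rest mostly on that pair of groups. For Gabrb2 the leading gene was Rims1 (0.982), which encodes a presynaptic active zone protein, followed by Ankrd34a and Golga2. Gabrd was most like Zfyve28 (0.973), Gabra4 like Cnpy3 (0.977), Gabra3 like Gm11639 (0.978) and Gabra2 like Tbc1d32 (0.942), the lowest of these leading values.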

How the data were processed

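Ribosomal RNA was removed from total RNA, and stranded libraries were sequenced. The authors deposited RSEM expected counts per gene, not normalized, made with cutadapt 1.14, STAR 2.5.3a and RSEM 1.3 on GRCm38.p5 (mm10), per the submitters' processing notes. Of all values 5.765% were not whole, and 0% of the members' values. Counts were rounded. Genes were filtered with filterByExpr (minimum count 10, minimum total 15), normalized by TMM and tested with edgeR 4.0.16 (quasi-likelihood) in R 4.3.3 at FDR 0.1 over all genes tested, with SE taken as the log2 difference over the square root of F. Genotype was tested within each period and region, period steps within each region and regions within each period with the mouse as a block. For period steps each gene's spread was estimated over all 3 periods and both genotypes of the region, so the SE of a step from P7 to P35 also holds the spread at E17.5. For levels, TMM CPM over all 102 libraries and 20859 kept genes was used, and CPM per kilobase of exon between genes. Sign is HET over WT, later over earlier, and second over first region. The 7 members, the other lists and the tests were chosen with earlier results of these data known. Named genes were the members, 9 other subunits, 11 scaffold genes, Cul3 and the 3 genes most like each member. DESeq2 1.42.0, other normalization, no filter, blocks and left-out mice were tried. Separate mice are the replicates. The fit was tested on simulated counts. Sex was not in the labels. Same-numbered WT and HET samples share the name series at E17.5 and P7. Their deviations correlated above 0.1 in all 6 pairs in E17.5 CX (r 0.11 to 0.76) and not in every pair elsewhere, although medians were 0.34 in E17.5 HIP and 0.29 in E17.5 CB. With the replicate number as a block, 55 genes were called in E17.5 CX (0.331%) and 0 members. Some genes of these lists are not reported here, and shares and list counts leave them out. Protein sequences were not used here. No 2 libraries of a group agreed within sampling noise. Genes, not transcripts, were counted.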

Additional observations from a re-analysis of the deposited data

Results flagged for a closer look

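In 114 groups of 5 or 6 libraries, 1 library stood far from the rest of its group in 5 cases, and chance alone gives about 1 in 20 groups. Gabra2 was at 276 CPM in HIP of WT P35 replicate 5, with the others at 333 to 351. Gabra3 was at 113 CPM in CX of HET P35 replicate 2, with the others at 101 to 105. Gabra3 was at 12.8 CPM in CB of WT P7 replicate 2, with the others at 16.4 to 18.5. Gabra5 was at 8.82 CPM in CB of HET P7 replicate 2, with the others at 2.54 to 4.19. Gabrb2 was at 160.4 CPM in HIP of WT P7 replicate 6, with the others at 122 to 132. Choroid plexus markers summed to 1583 CPM in that Gabra5 library, and 4 other HET libraries of the group were at 746 to 2690 CPM.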

How the results depend on the processing

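Counts of members called stayed within 1.5 times in 452 of 453 comparisons with another setting. They include counts between genotypes, where 0 members were called in the main fit, so their agreement tells little. Of values of single genes, 2840 of 2862 kept their direction and side of the threshold. A change of sign within 1 SE of a difference never called was not counted. Without the S3 embryos 5 members, not 3, differed between CX and CB at E17.5, and Gabra2 in CX from E17.5 to P7 was -0.0439. In P7 CB the HET over WT difference of Gabra3 was -0.0711 with choroid plexus markers as a covariate and -0.0672 with 3 factors of unwanted variation, and that of Gabra5 was -0.118 and -0.0177. With those factors Gabra6 in P35 CB was at -0.0797. By longest transcript, shares among the 5 alpha genes were 44.2% (Gabra5, P7 CX), 26.6% (Gabra3, P35 CX), 49.6% and 42.7% (Gabra5, P7 and P35 HIP), 38.6% (Gabra3, E17.5 CB) and 92.3% (Gabra6, P35 CB). Gabra6 between CX and HIP at P7, near 0 in both, ran from -0.51 to 2.504 with 1 mouse left out. The cause was not tested. Gabra5 between CX and HIP at E17.5 was not called without the filter (FDR 0.106) or the mouse block (FDR 0.131), and between CX and CB it was called without that block (-0.95). With the replicate number as a block, Gabra3 in CX from P7 to P35 was called (0.29), and no count of members called between genotypes changed. Outside E17.5 CX the pairs of same-numbered WT and HET samples were not all correlated above 0.1 (lowest r -0.660, in P7 HIP), so the number was not taken as a pairing there, although at E17.5 and P7 same-numbered samples also share the name series. Depth limited Gabra6 outside CB and Gabrd and Gabra5 where counts were few.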

Other observations

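Mice P35_22 and P35_23 were left out because the labels call them HET and WT, and the sample table of the study has them the other way round. Cul3 was at 95.7 to 121 CPM in P35_22 and at 196 to 227 CPM in P35_23 over the 3 regions. Gabra6 in CB was at 776 CPM in P35_22 and 765 CPM in P35_23. Gabra5 in HIP was at 185 and 221 CPM, and Gabrd in CX at 61.7 and 57.9 CPM. With both mice added under either genotype, 0 members were called between genotypes.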
